A study of Mus musculus with 2 samples.

Results

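The core circadian clock genes Arntl, Clock, Npas2, Per1, Per2, Per3, Cry1, Cry2, Ciart and Dbp were followed in mouse liver during acute endotoxin injury, in the presence and absence of guanylate-binding protein 5. They were taken by symbol from the GENCODE M21 annotation of GRCm38, which gave 10 genes out of 52636 Ensembl genes counted, and all 10 were among the 14055 genes with a level of at least 1 CPM (counts scaled to a common library total) in either library. Both groups were C57BL/6 mice, 9 weeks old, examined 6 h after D-galactosamine at 800 µg/g and lipopolysaccharide at 100 ng/g, one group being wild type (WT) and the other lacking GBP5 (KO). Lipopolysaccharide is a bacterial endotoxin to which D-galactosamine sensitises the liver. Liver RNA of 4 mice per genotype was pooled and sequenced as 1 library, so there are no replicates, no p-values, and no untreated library was analysed here. No source used here gives how the allele was made or at which hour of the day the livers were taken. Intervals are exact 95% intervals that treat reads as independent and cover counting error only. Reads are not independent molecules, so these intervals may be too narrow. Every difference compares these 2 libraries and not the genotypes.

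The clock is a transcriptional feedback loop. BMAL1, the product of Arntl, pairs with CLOCK or its relative NPAS2, binds E-box sequences and switches on the Per and Cry genes, whose proteins then block that activity. Ciart (also called Chrono) adds a further repressor, and DBP, which binds D-box sequences, passes the rhythm on to metabolic genes of the liver. In mouse liver the transcripts of Arntl and Npas2 peak at the opposite time of day from those of Dbp and the Per genes, so levels of all of them depend on when tissue is taken.

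Promoter stretches of 4 members are shown because they hold E-box or D-box letters, the sequence types named above. RefSeq sequences of GRCm38.p6 were available for all members but Per2, with 13 transcript starts for 9 genes, and the 250 bases before each start were searched on both strands for the E-box CACGTG, the E-prime box CACGTT, the D-box TTATGTAA or TTACGTAA and the half-site TGACG of the cAMP response element. Capitals mark the matches, which do not overlap each other in the stretches shown, and an E-prime box on the other strand reads AACGTG. The stretch of Per1 lies at chr11:69098699-69098848 on the plus strand, from 250 to 101 bases before the start. The others lie on the minus strand, that of Per3 at chr4:151044786-151044885, that of Cry1 at chr10:85185085-85185154 and that of Ciart at chr3:95882259-95882358.
Per1: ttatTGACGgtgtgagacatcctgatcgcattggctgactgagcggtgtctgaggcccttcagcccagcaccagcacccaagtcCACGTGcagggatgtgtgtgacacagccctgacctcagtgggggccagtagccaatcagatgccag
Per3: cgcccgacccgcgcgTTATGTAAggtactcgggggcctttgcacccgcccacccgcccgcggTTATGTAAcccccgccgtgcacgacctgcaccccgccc
Cry1: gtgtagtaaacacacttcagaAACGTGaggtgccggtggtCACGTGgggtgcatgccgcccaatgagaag
Ciart: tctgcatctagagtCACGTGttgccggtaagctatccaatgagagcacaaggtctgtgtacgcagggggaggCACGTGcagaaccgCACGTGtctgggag

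Ciart held 3 E-boxes, at 116, 58 and 44 bases before its start, and Per1 and Cry1 held 1 each. An E-box occurred in 3 of the members' 13 windows and in 6.02% of 32851 RefSeq windows of the same length. Per3 held 2 D-boxes, at 205 and 158 bases before its start, in the 1 window of 13 with that motif, and 0.931% of all windows held one. E-prime boxes were found in 2 of the 13 windows, those of Cry1 and Cry2, and in 3.85% of all windows. The half-site was found in 4 of the 13, belonging to Per1, Cry1 and Cry2, and in 17.8% of all windows. No window of Arntl, Clock, Npas2 or Dbp held any of these motifs. A match is a description of letters and not of binding.

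The libraries held 19864848 reads on Ensembl genes in WT and 15750875 in KO. The limit of 3 reads set for a count of 0 corresponds to 0.151 CPM in WT and 0.190 CPM in KO. Gbp5, the targeted gene, was counted with 3211 reads in WT against 873 in KO and was 2.92-fold lower (2.71 to 3.15), which goes the way of the labels. All 8 hepatocyte markers were well measured, and together they held 61572 CPM in WT and 98572 in KO. Of these, 7 were higher in KO and 1 lower, and the sums rest mostly on Alb, with 38384 and 69250 CPM. Markers of other cell types moved between the libraries as well. All 10 Kupffer cell and macrophage markers were lower in KO, with a sum of 1479 CPM in WT and 601 in KO, and so were the 7 of 8 T and NK cell markers that passed 1 CPM, with list sums of 62.8 and 27.4 CPM. Cholangiocyte markers summed to 152 and 215 CPM, neutrophil markers to 407 and 318, endothelial markers to 569 and 450, and stellate cell markers to 745 and 761. Single markers of these lists went both ways. Higher in KO were 6 of 7 cholangiocyte, 2 of 7 neutrophil, 1 of 6 endothelial and 2 of 6 stellate cell markers, against 45.9% of all genes tested. With the GC and length correction described below these numbers became 5, 0, 4 and 3, with a median log2 ratio of all genes of 0.00419. All 8 hepatocyte markers then lay above 0. The 10 Kupffer cell and macrophage markers and the 7 T and NK cell markers stayed below 0. Of 8 exocrine pancreas genes, Cpa1, Cpb1, Pnlip and Amy2b had no read in either library, Prss2 had 1 and 0, Cela2a 6 and 9, and Cela1 521 in WT and 328 in KO. Ctrb1 alone among them went from 0 to 297 reads. The clock runs in most cell types, and the part of these cells in the values below was not tested. In bulk RNA, fewer cells of a type and less RNA per cell cannot be told apart.

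Among the clock genes, Per1 was 2.21-fold lower in KO and the only member to pass a 2-fold difference. Arntl came closest in the other direction, at 1.83-fold higher. Per2, Per3, Cry1 and Cry2 lay between 1.21-fold and 1.38-fold lower, while Clock, Ciart and Dbp lay between 1.33-fold and 1.37-fold higher and Npas2 had a ratio of 0.929. No member was 2-fold higher, against 4.63% of all genes tested, and 1 of 10 was 2-fold lower, against 12.4%. The counting interval of the ratio lay wholly above 1 for 3 members (26.7% of all genes tested) and wholly below 1 for 4 (36.5%). None of these counts is far from its background. The members' median log2 ratio of KO to WT was -0.19, and that of all genes tested -0.06. Of the members 4 were above 0 and 6 below, against 45.9% and 54.1% of all genes tested.

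The libraries also differed along GC content, which touches each of these values. With all genes tested split into 10 classes by GC content, the poorest class had a median log2 ratio of 0.30 and the richest one of -0.87, and 43.4% of the richest class were 2-fold lower in KO. Each gene was therefore also given relative to the median of genes of like GC content and length, a correction known from earlier work on these data that also removes any real difference going with those properties. After it, 5.22% of genes were 2-fold higher and 6.71% 2-fold lower, so that 56.2% of the genes past 2-fold were lower, against 72.8% before. The members' median became 0.21, with 9 of 10 above 0, and that of all genes tested 0.00419. Corrected values stand beside each member below.

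**Figure D1:**
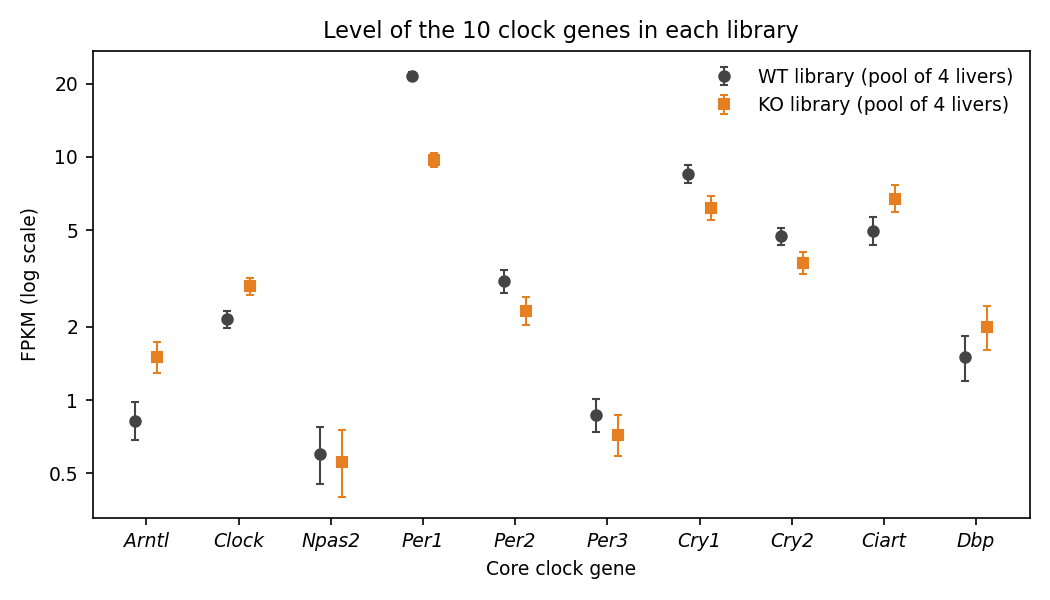
Level of each clock gene in the WT (circles) and KO (squares) library, as FPKM on a log axis, with 95% counting intervals. Per1 has the highest level in both libraries, 21.5 FPKM in WT and 9.72 in KO, and Npas2 the lowest, 0.599 and 0.557.

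Of the 3 activators, Arntl differed most. Arntl (ENSMUSG00000055116, chromosome 7, 113207465 to 113314126, plus strand) encodes BMAL1, without which the loop stops. It was counted with 123 reads in WT against 178 in KO, or 6.19 CPM (interval 5.15 to 7.39) and 11.3 CPM (9.70 to 13.1), and these level intervals did not overlap. The KO to WT ratio was 1.83 (1.44 to 2.32), a log2 ratio of 0.87 that was higher than that of 93.7% of all genes tested. After correction it was 0.99, or 1.99-fold, still just short of 2-fold. Arntl also stood above 93.2% of the 1406 genes in its own class by GC content.

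Clock (ENSMUSG00000029238, chromosome 5, 76209868 to 76304792, minus strand), the partner of BMAL1 with acetyltransferase activity, had 585 and 635 reads, or 29.4 CPM in WT and 40.3 in KO. Its ratio of 1.37 (1.22 to 1.53) lay above 1. Clock is the member lowest in GC content, at 40.9%, and genes of its kind were higher in KO as a whole, so that its log2 ratio went from 0.45 to 0.21 with the correction. Npas2 (ENSMUSG00000026077, chromosome 1, 39193731 to 39363236, plus strand), which can stand in for CLOCK, had 57 and 42 reads, or 2.87 and 2.67 CPM. Its ratio of 0.929 (0.609 to 1.41) could not be placed on either side of 1 at this depth. Arntl and Npas2, which cycle in the same phase, thus differed from each other: Arntl relative to Npas2 was 1.96-fold higher in KO than in WT (1.21 to 3.20), and 1.72-fold after correction.

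The 3 Per genes were all lower in KO before correction, and Per1 by far the most. Per1 (ENSMUSG00000020893, chromosome 11, 69095217 to 69109960, plus strand) is both a clock repressor and a gene quickly induced by glucocorticoids and cAMP. It was counted with 2401 reads in WT against 862 in KO, or 121 CPM (116 to 126) and 54.7 CPM (51.1 to 58.5). The 2.21-fold difference had an interval from 2.04 to 2.39, wholly past 2-fold, and a log2 ratio of -1.14. Only 9.77% of all genes tested were lower. Genes like Per1 in GC content (59.4%) and length were lower too: among 298 such genes the median log2 ratio was -1.23 and 63.8% were 2-fold lower in KO. Relative to them Per1 was at 0.089, so its 2-fold call ended and its sign turned with the correction. Within its class by GC content alone, Per1 lay below the median of -0.87 and stood above 37.3% of the 1406 genes.

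Per2 (ENSMUSG00000055866, chromosome 1, 91415982 to 91459324, minus strand), the Per gene whose loss most disturbs rhythms, had 358 and 215 reads, or 18.0 and 13.7 CPM. It was 1.32-fold lower (1.11 to 1.57), with a log2 ratio of -0.40 before and 0.19 after correction. Per3 (ENSMUSG00000028957, chromosome 4, 151003652 to 151044665, minus strand), the least essential of them and the one with the 2 D-boxes shown above, had 166 and 109 reads, or 8.36 and 6.92 CPM. Its interval, from 0.644 to 1.06, included 1, and its log2 ratio went from -0.27 to 0.13. Within their classes by GC content alone, Per2 stood above 45.7% of genes and Per3 above 44.5%, so both lay below the class medians. The 3 Per genes together had a summed CPM 1.96-fold lower in KO (1.83 to 2.09), a sum that rests mostly on Per1. Without Per1, the other Per and Cry genes together were 1.31-fold lower (1.22 to 1.42).

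**Figure D2:**
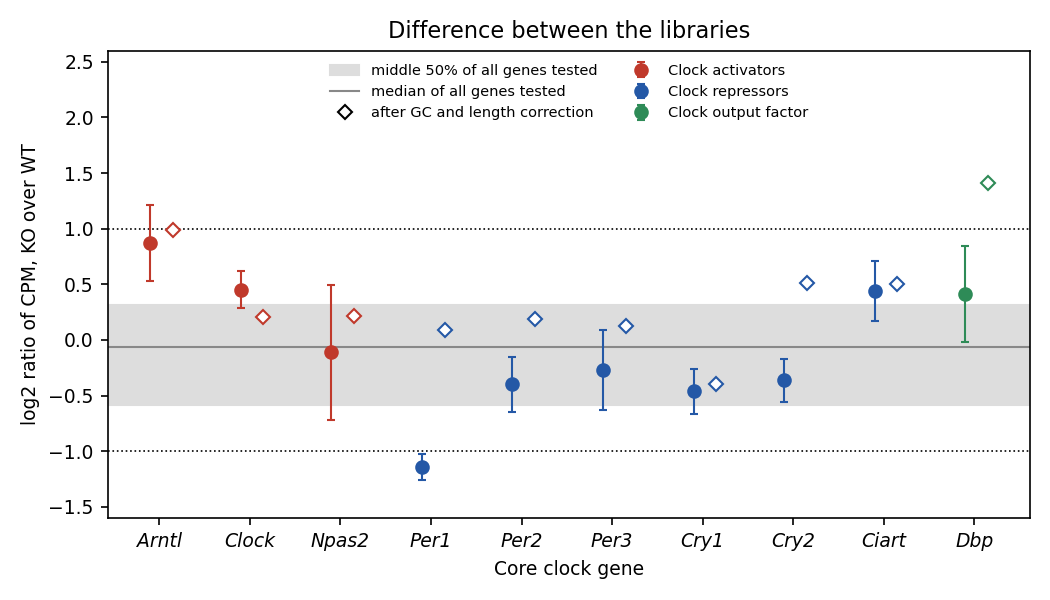
Log2 ratio of CPM, KO over WT, of each clock gene (filled circles, with 95% counting intervals) and the same after the GC and length correction (open diamonds, without interval). The grey band holds the middle 50% of all genes tested and dotted lines mark 2-fold; Per1 moves from -1.14 to 0.089 and Dbp from 0.41 to 1.41.

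The 2 cryptochromes, the strongest repressors of the BMAL1 complex, had like ratios before correction and different ones after it. Cry1 (ENSMUSG00000020038, chromosome 10, 85131700 to 85185064, minus strand) had 565 and 325 reads, or 28.4 and 20.6 CPM, and was 1.38-fold lower (1.20 to 1.58). It was the only member below 0 after correction, with a log2 ratio of -0.46 before and -0.40 after. Cry2 (ENSMUSG00000068742, chromosome 2, 92403646 to 92434043, minus strand) had 591 and 364 reads, or 29.8 and 23.1 CPM, and was 1.29-fold lower (1.13 to 1.47). Its log2 ratio of -0.36 turned to 0.51, since genes of its GC content (55.6%) and length had a median of -0.88. Cry2 shares 295 exon bases with the lowly counted D930015M05Rik on the other strand, which had 1 read in each library.

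Ciart (ENSMUSG00000038550, chromosome 3, 95878503 to 95882251, minus strand) is the repressor with the 3 E-boxes shown above. Before correction it went the other way from the Per and Cry genes. It had 223 and 240 reads, or 11.2 CPM in WT (9.80 to 12.8) and 15.2 in KO (13.4 to 17.3). Its ratio of 1.36 (1.13 to 1.64) lay above 1, and its log2 ratio was 0.44 before and 0.51 after correction. Cry1 and Ciart fell in the same bin of GC content and length, so the correction left their difference as it was: Cry1 relative to Ciart was 1.87-fold lower in KO (1.48 to 2.36).

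Dbp (ENSMUSG00000059824, chromosome 7, 45705088 to 45710203, plus strand), the output factor, was counted with 89 reads in WT against 94 in KO, or 4.48 CPM (3.60 to 5.51) and 5.97 CPM (4.82 to 7.30), intervals that overlapped. Its ratio of 1.33 had an interval from 0.986 to 1.80. Dbp is the member richest in GC, at 61.6%, and it stood above 95.3% of the 1406 genes in its class by GC content. After correction its log2 ratio was 1.41, or 2.66-fold higher, the only member past 2-fold on that scale. This corrected value rests on the same 89 and 94 reads and carries no interval. Dbp shares 539 exon bases, 18.0% of its exon length, with Sphk2 on the opposite strand, which had 641 and 312 reads. No source used here gives the strand setting of the counting, so reads of that stretch may have been dropped or assigned to either gene.

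**Figure D3:**
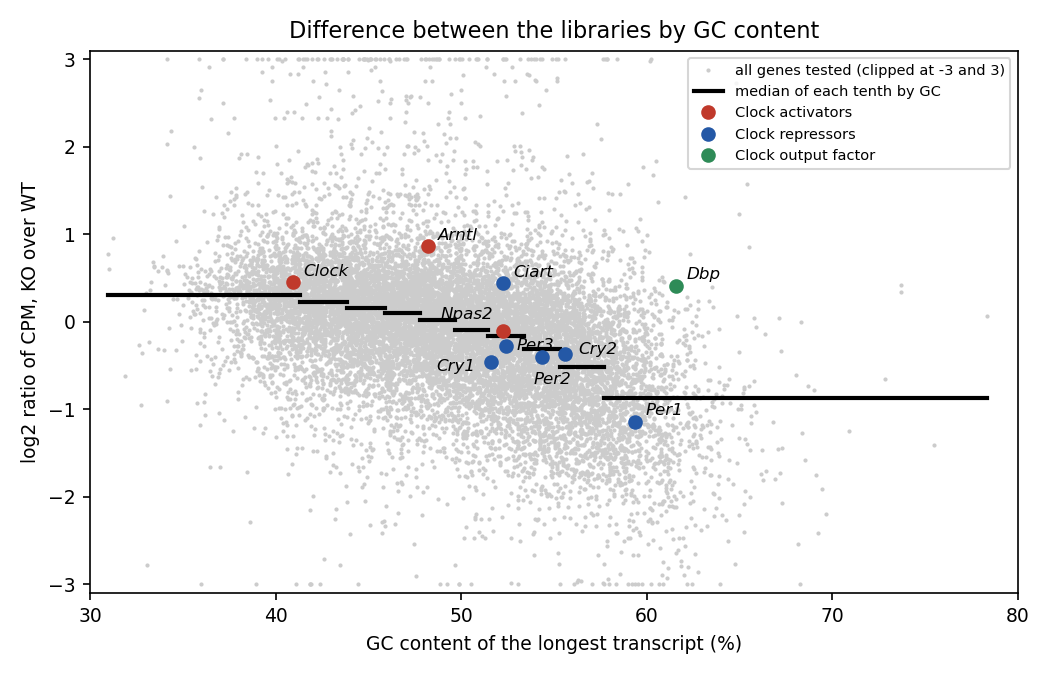
Log2 ratio of CPM, KO over WT, against the GC content of the longest annotated transcript, for all 14055 genes tested (grey, values beyond -3 and 3 drawn at the edge) and the clock genes (coloured). Black bars give the median of each of 10 classes of genes by GC content, from 0.30 to -0.87; Per1 lies close to its bar, while Arntl, Ciart and Dbp lie above theirs.

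Ratios between members within a library do not depend on the library totals. They were computed for all 45 pairs of clock genes. Before correction Per1 was lower relative to each of the other 9 members. After it, Per1 relative to Cry1 turned to 1.40. Its ratios to Per2, Clock and Npas2 lay at 0.935, 0.921 and 0.919, and that to Per3 between these and 1. Per1 stayed further below 1 relative to Ciart, Cry2, Arntl and Dbp, at 0.750, 0.746, 0.535 and 0.400. These corrected ratios carry no interval. Arntl stood at 0.0383 of Per1 in FPKM, a level scaled to gene length, in WT and at 0.155 in KO, a change of 4.03-fold (3.14 to 5.18) that was 1.87-fold after correction. In all 10 pairs of Arntl or Clock with a Per or Cry gene the interval lay on the side of the activator before correction. After it, the 5 pairs of Arntl lay between 1.39 and 2.62, whereas Clock was at 1.09, 1.01 and 1.06 relative to Per1, Per2 and Per3, at 1.52 relative to Cry1 and at 0.810 relative to Cry2, values that carry no interval. For Npas2, the third activator, the interval included 1 in 4 of 5 such pairs, the exception being Per1. Relative to the repressor gene Ciart the intervals of Arntl, at 1.34 (0.992 to 1.82), and Clock, at 1.01 (0.809 to 1.26), included 1. Summed over genes, the reads of the 3 activators relative to those of the 5 Per and Cry genes were 2.43-fold higher in KO (2.17 to 2.72), and 1.85-fold (1.63 to 2.10) without Per1. The activator sum rests mostly on Clock, with 585 of 765 reads in WT and 635 of 855 in KO. The correction brought the groups close together: their median log2 ratios were 0.45 and -0.40 before it and 0.21 and 0.13 after it. In 6 of 6 pairs among Per2, Per3, Cry1 and Cry2 the interval included 1 before correction, as it did for Ciart relative to Dbp, at 1.02 (0.713 to 1.46).

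By level per length, Per1 came first in both libraries, with 21.5 FPKM in WT and 9.72 in KO. In WT it was followed by Cry1 at 8.52 FPKM, Ciart at 4.97 and Cry2 at 4.71, the last pair with overlapping intervals. Per2 at 3.08 FPKM, Clock at 2.15 and Dbp at 1.50 came next, and Per3 at 0.870, Arntl at 0.823 and Npas2 at 0.599 were lowest, each overlapping its neighbour. In KO, Ciart at 6.74 FPKM and Cry1 at 6.18 exchanged places with overlapping intervals. Clock at 2.94 FPKM stood above Per2 at 2.33, and Arntl at 1.50 stood above Per3 at 0.720, both without overlap. FPKM levels are not corrected for GC content. After the correction, the KO to WT change of Clock relative to Per2 was 1.01-fold and that of Arntl relative to Per3 1.82-fold. The FPKM levels use the union of all annotated exons as length, which for Clock comes to 13727 bases and lowers its FPKM if shorter transcripts prevail.

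Most genes of the second loop of the clock had ratios above 1 in KO, as did most reference genes. In this loop, REV-ERB proteins (Nr1d1, Nr1d2) repress and ROR proteins (such as that of Rora) activate Arntl, NFIL3 opposes the D-box factors TEF, HLF and DBP, and the DEC proteins (Bhlhe40, Bhlhe41) compete at E-boxes. Of 11 such genes 9 passed 1 CPM, and 8 of these were above 0, against 45.9% of all genes tested. Their median log2 ratio was 0.25, and 0.45 after correction. The reference genes had the same median, 0.25, and 0.18 after correction. Rora was counted with 291 reads in WT against 460 in KO, or 14.6 and 29.2 CPM, a ratio of 1.99 (1.72 to 2.32). Bhlhe41 was the only one of these genes past 2-fold, at 3.99 (1.53 to 12.2), on 6 and 19 reads. Bhlhe40, the most abundant of these genes by FPKM, was at 1.36 (1.30 to 1.43). The repressor genes Nr1d2 and Nr1d1 were at 1.38 (1.18 to 1.62) and 1.19 (1.06 to 1.33), and Nfil3 at 1.15 (1.05 to 1.26). Hlf and Tef, at 1.11 and 1.04, had intervals that included 1. Rorb had 0 and 1 read and Arntl2, the paralogue of Arntl, 7 and 13, both under the filter.

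Kinases, ubiquitin ligases and partners that act on clock proteins differed in both directions, with 8 of 15 above 0 (45.9% of all genes tested). Their median log2 ratio was 0.0052. Of the 15, 2 were at least 2-fold higher (4.63% of all genes tested) and 1 at least 2-fold lower (12.4%). Sirt1, a deacetylase that binds CLOCK, was 2.31-fold higher (1.94 to 2.75), Prkaa2, a catalytic subunit of the energy sensor AMPK, 2.28-fold higher (1.96 to 2.64), and Btrc, a ligase subunit for PER proteins, 1.80-fold higher (1.44 to 2.26). After correction Prkaa2 was at a log2 ratio of 0.89, short of 2-fold, and Sirt1 at 1.09. Usp2, named after its value was seen, went from 0.78 to 1.21. The list thus again held 2 genes at least 2-fold higher (5.22% of all genes tested) and 1 at least 2-fold lower (6.71%). Fbxl21, a ligase subunit for CRY proteins, was 3.67-fold lower on 37 and 8 reads, Timeless 1.93-fold lower and the kinase gene Gsk3b 1.54-fold lower. With the correction Timeless went from -0.95 to -0.36.

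Among 17 rhythmic liver genes that lie downstream of the clock, 10 were above 0 and 7 below, with a median log2 ratio of 0.037. Of all genes tested, 45.9% were above 0. In this list 4 were at least 2-fold higher (4.63% of all genes tested) and 1 at least 2-fold lower (12.4%). Alas1, the rate-limiting enzyme of heme synthesis and a target of D-box factors, was counted with 2646 reads in WT against 7055 in KO and was 3.36-fold higher (3.22 to 3.52). Lpin1, a phosphatidate phosphatase, was 2.15-fold higher (2.05 to 2.25) and Rgs16, a regulator of G protein signalling, 2.09-fold higher (1.93 to 2.27). Gys2, liver glycogen synthase, was the other gene past 2-fold, at 2.01 (1.86 to 2.16), and is named after its value was seen. It was at a log2 ratio of 0.94 after correction. In the other direction, Elovl3, a fatty acid elongase, was 2.20-fold lower (8741 and 3150 reads), Avpr1a, a vasopressin receptor, 1.61-fold lower and Noct, a phosphatase known as nocturnin, 1.57-fold lower. Alas1, Lpin1, Rgs16 and Elovl3 stayed past 2-fold after correction, at 2.34, 1.40, 1.20 and -1.27.

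Glucocorticoids and cAMP, which induce Per1, also induce other genes of the liver. Of 10 glucocorticoid-induced genes 4 were above 0 and 6 below, against 45.9% and 54.1% of all genes tested. Their median log2 ratio was -0.18, and -0.039 after correction. Zbtb16, a transcription factor, was 2.20-fold lower, the MAP kinase phosphatase gene Dusp1 1.59-fold lower and the transcription factor gene Klf9 1.59-fold lower. Sgk1 and Errfi1 were 1.33-fold and 1.32-fold higher, and Mt2 2.07-fold higher on only 14 and 23 reads, with an interval from 1.02 to 4.35. After correction Zbtb16 was at a log2 ratio of -0.70 and no longer 2-fold lower. Of 8 cAMP-induced genes 4 lay on each side of 0, with a median log2 ratio of -0.15, of -0.12 after correction, and none at 2-fold. Sik1, a kinase of the CREB pathway, was 1.69-fold lower, Nr4a3 1.42-fold and Nr4a1 1.32-fold lower, while Fos, Egr1 and Crem were 1.28-fold, 1.11-fold and 1.07-fold higher. With the correction the log2 ratio of Sik1 went from -0.75 to -0.32, that of Nr4a1 turned from -0.40 to 0.25 and that of Crem from 0.092 to -0.10. Of 13 reference genes 10 were above 0, from Polr2a at 1.68, Ppia at 1.44 and Hprt at 1.32 down to Eef2 at 0.671 and Gapdh at 0.431. After correction Polr2a passed 2-fold, at a log2 ratio of 1.14, and Gapdh no longer did, at -0.90.

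**Figure D4:**
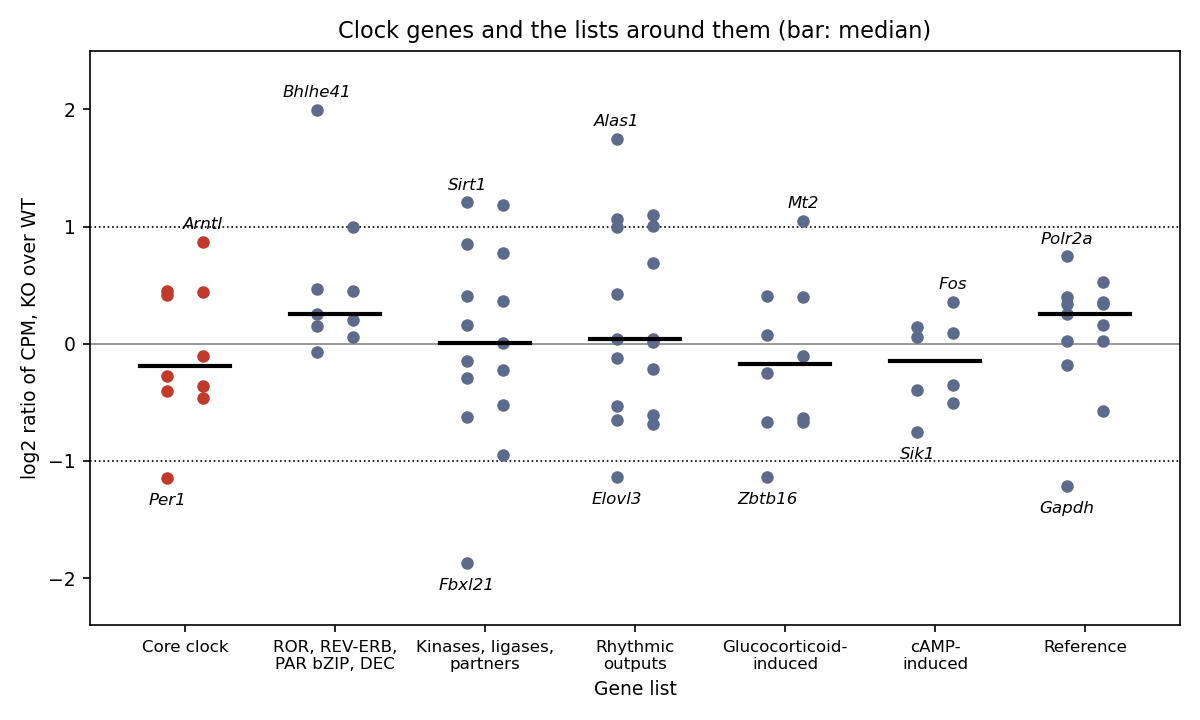
Log2 ratio of CPM, KO over WT, for the clock genes and 6 surrounding gene lists, 1 point per gene at 1 CPM or more in either library. Bars are medians, dotted lines mark 2-fold, and the highest and lowest gene of each list is named, apart from the lowest of the ROR and REV-ERB list; the clock genes span -1.14 (Per1) to 0.87 (Arntl).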

How the data were processed

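RNA from pooled livers was sequenced as 1 library per genotype, and groups were taken from the genotype labels. The authors used GRCm38, TopHat2 and HTSeq 0.6.1, per the submitters' processing notes, while no source used here gives the annotation release or strand setting. The deposited files are named for FPKM but hold whole-number read counts, with different totals per library and 2707 genes at exactly 1 read in WT, and were used as raw counts. Entries without an Ensembl gene, 0.652% of reads in WT and 0.496% in KO, were left out of totals and comparisons.

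CPM was computed over all Ensembl genes, and FPKM with the union of exons in GENCODE M21. Of the Ensembl genes, 52403 were in that annotation. Ratios of CPM carry exact Clopper-Pearson intervals conditional on the reads of both libraries, and levels carry exact Poisson intervals. Pairs of genes were compared by the conditional odds ratio of their reads. A gene counted as different at 2-fold among genes at 1 CPM or more in either library, with a count of 0 set to 3 reads. The correction subtracted the median log2 ratio of a gene's bin, out of 10 by GC content crossed with 4 by length, set on genes of at least 100 summed reads, with GC content taken from the longest transcript. Simulated Poisson counts with known fold changes were used to test that these steps compute what they should. Such counts hold no spread beyond counting error, so they cannot show whether the intervals are too narrow for real reads.

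The members and lists were chosen with earlier results of these data known. Named genes were all members, Gbp5, all measured genes of the second loop, genes overlapping a member and the 3 highest and 3 lowest of each other pathway list. Of cell type lists only counts and sums are given, apart from Alb and the pancreas genes, named after their values were seen. Single values of some genes that this rule names are not reported here, while counts and medians cover the full lists. Alternatives were median ratio (DESeq2 1.42.0) and TMM (edgeR 4.0.16) scaling, other totals, FPKM, pseudocounts, filters and protein-coding genes only. Python 3.11.15 with scipy 1.17.1 and R 4.3.3 were used.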

Additional observations from a re-analysis of the deposited data

How the results depend on the processing

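The direction of all 10 clock genes, where they passed the filter, and the call of Per1 were kept under 10 of 11 alternatives: median ratio and TMM scaling, totals without the 50 most abundant or without mitochondrial genes, FPKM, both pseudocounts, both filters and protein-coding genes alone. Filters and the protein-coding set leave a member's ratio as it is, and an added constant cannot turn its sign. Scalings and totals shift all genes by the same small amount. Kept directions under these 10 are therefore weak evidence of robustness. The GC and length correction changed both the directions and the call. It turned Per1 to 0.089, Per2 to 0.19, Per3 to 0.13, Cry2 to 0.51 and Npas2 to 0.21, left 0 members 2-fold lower and 1, Dbp, 2-fold higher, and moved the members' median from -0.19 to 0.21. Genes 2-fold higher in KO numbered 651, and 289 on FPKM with 1 added, 295 with 1 CPM added, 194 at 5 CPM or more and 3693 without a filter. Genes 2-fold lower numbered 1745, and 785 on FPKM with 1 added, 4398 without a filter and 943 after the correction. Of genes past 2-fold, 86.1% were lower at 5 CPM or more and 54.4% without a filter. The cause of these changes was not tested, apart from the number of genes, which the filter itself sets at 10400 and 25359. Under the correction Arntl, Cry1 and Ciart kept their direction and lay within their counting intervals. Totals without the 50 most abundant genes moved the median of all genes from -0.06 to 0.039 and that of the members to -0.086. No paired analysis was possible because each genotype has 1 library. Npas2 and Dbp rest on under 100 reads per library, and their counting intervals included a ratio of 1.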
